A study of Rattus norvegicus with 8 samples.

Results

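The genes described here encode chaperones and folding enzymes of the endoplasmic reticulum (ER) that the unfolded protein response controls, measured in BRL-3A, an established rat liver cell line. They were taken as all non-control probes whose gene name in the scanner files was Hspa5, Hsp90b1, Hyou1, Dnajb9, Dnajb11, Dnajc3, Pdia4, Pdia6, Calr or Creld2. These 10 genes had 13 probes among the 41012 probes and 16519 named genes of the array. All 13 probes were well above background on all 8 arrays, so each member was measured. Cells transfected with siRNA lnc19959.2, which targets a long noncoding RNA, were set against cells whose transfection is labelled NC, an abbreviation the labels do not expand, with 4 arrays in each group. Both groups were BRL-3A cells harvested 48 h after lipofectamine transfection. RNA was labelled with Cy3 and hybridised to an Agilent whole rat genome array, 1 sample per array. Since no probe bears the name of the targeted RNA, its depletion could not be read from these arrays.

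Secretory and membrane proteins fold in the ER lumen, where BiP (encoded by Hspa5) and its partners bind them until they reach their final shape. When unfolded proteins accumulate, the sensors IRE1, PERK and ATF6 signal to the nucleus, and the transcription factors XBP1 and ATF6 raise the chaperone genes. The liver secretes large amounts of plasma proteins and lipoproteins, and its cells carry a large ER. Promoters of this gene group are known for the ER stress response element (ERSE), a CCAAT box and a CCACG box at a fixed distance.

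Promoters of 4 members are shown because they differ in their motifs: those of Hspa5 and Hsp90b1 hold an ERSE, that of Dnajb11 another element of the response, and that of Dnajb9 neither. Since the members were chosen as genes of this response, finding its elements in their promoters is not independent of that choice. RefSeq promoters, from 250 bases before to 50 bases after the transcript start, were given for 9 of the 10 members, Pdia6 being the exception. In each, the letters in capitals are the fixed letters of exact matches, on either strand, to ERSE (CCAAT and CCACG with 9 bases between them), ERSE-II (ATTGG and CCACG with 1 base between them) or the XBP1 site TGACGTGG.
Hspa5 promoter (GRCr8 chr3:38452766-38453065, plus strand): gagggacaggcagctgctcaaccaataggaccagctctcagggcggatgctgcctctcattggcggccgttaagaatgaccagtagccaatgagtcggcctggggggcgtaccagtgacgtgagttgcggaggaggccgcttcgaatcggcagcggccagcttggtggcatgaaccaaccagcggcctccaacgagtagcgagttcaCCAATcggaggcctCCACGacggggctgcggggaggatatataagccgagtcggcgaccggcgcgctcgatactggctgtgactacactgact
Hsp90b1 promoter (GRCr8 chr7:23012244-23012543, minus strand): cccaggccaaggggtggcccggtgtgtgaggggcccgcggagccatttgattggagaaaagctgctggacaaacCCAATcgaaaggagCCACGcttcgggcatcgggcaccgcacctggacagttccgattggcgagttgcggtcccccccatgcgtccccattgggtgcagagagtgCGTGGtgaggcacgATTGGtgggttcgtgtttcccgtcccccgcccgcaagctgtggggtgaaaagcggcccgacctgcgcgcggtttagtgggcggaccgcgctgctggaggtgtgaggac
Dnajb9 promoter (GRCr8 chr6:67002002-67002301, minus strand): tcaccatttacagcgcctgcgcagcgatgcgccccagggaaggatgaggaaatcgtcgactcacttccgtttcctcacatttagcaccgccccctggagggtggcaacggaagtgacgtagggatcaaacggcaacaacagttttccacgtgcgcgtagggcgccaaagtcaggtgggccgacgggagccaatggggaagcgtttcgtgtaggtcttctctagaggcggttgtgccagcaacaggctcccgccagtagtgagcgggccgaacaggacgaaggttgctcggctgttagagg
Dnajb11 promoter (GRCr8 chr11:91672751-91673050, minus strand): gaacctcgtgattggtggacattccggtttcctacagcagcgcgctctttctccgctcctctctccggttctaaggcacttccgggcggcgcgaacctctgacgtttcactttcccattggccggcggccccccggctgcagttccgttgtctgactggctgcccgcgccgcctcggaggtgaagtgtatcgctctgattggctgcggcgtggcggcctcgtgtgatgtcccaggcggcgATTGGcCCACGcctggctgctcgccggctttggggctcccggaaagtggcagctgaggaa
An exact ERSE was present in the promoters of 5 of 9 members, namely Hspa5, Hsp90b1, Calr, Creld2 and Dnajc3, whereas 0.0657% of 33469 rat promoter windows held one. Hsp90b1 had an exact match on each strand. ERSE-II was present in Dnajb11 and Hyou1 and in 0.0508% of all windows, and the XBP1 site in Hyou1 and in 0.595% of all windows. In Hyou1 the XBP1 site overlapped an ERSE-II match. With 1 mismatch allowed, ERSE was also found in Hyou1 and Pdia4, and in 1.41% of all windows. The Dnajb9 window held none of the 3 motifs. The plain CCAAT box stood in all 9 members' promoters and in 37.5% of all windows.

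The 60-base probes below are those on which the results turn, the single Hspa5 probe and both probes of Dnajb9 and of Hyou1.
Hspa5 (rn4 chr3:13787739-13787798, plus strand): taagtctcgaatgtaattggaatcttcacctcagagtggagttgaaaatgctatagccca
Dnajb9, brighter (rn4 chr6:63583604-63583663, minus strand): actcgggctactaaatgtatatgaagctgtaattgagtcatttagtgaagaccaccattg
Dnajb9, other (rn4 chr6:63584289-63584348, minus strand): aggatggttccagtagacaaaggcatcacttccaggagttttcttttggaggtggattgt
Hyou1, brighter (rn4 chr8:47358785-47358844, plus strand): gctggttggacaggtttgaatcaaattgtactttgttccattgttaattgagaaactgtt
Hyou1, other (rn4 chr8:47356217-47356367, plus strand): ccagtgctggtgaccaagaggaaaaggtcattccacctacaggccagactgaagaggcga
According to the array design, the Hspa5 probe starts at position 2223 of its transcript. The Dnajb9 probes start at positions 1287 and 599 of theirs, and the Hyou1 probes at positions 4386 and 2996. The dimmer Hyou1 probe spans 151 genomic bases, more than its own 60, and so its target crosses an exon junction.

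The arrays differed in ways that touch every value. The 75th percentile of the processed intensity was 289 to 323 on siRNA arrays and 246 to 261 on NC arrays, and 55.4% to 59.1% of spots were well above background on siRNA arrays, against 57.2% to 64.0% on NC arrays. The siRNA samples shared 1 slide and 1 scan and the NC samples shared another pair, and the effects of slide, scan and transfection cannot be told apart. Nothing in the labels says that the 4 samples of a group were separate cultures, and the p-values rest on the spread among these arrays, which may be technical. Of 10861 measured genes, 3922 were higher and 3137 lower in siRNA cells by limma at an adjusted p under 0.05. Only 4 of 14 hepatocyte markers were measured, and Alb, Ttr, Apob and Tf were not among them. The summed signal of marker lists differed between the groups, at 4.60 to 6.42 times the array's 75th percentile in siRNA cells and 0.980 to 1.08 times in NC cells for hepatocyte markers. Among these Cyp2e1 and Hnf4a were higher (log2 differences of 4.94 and 0.84), Apoa1 was lower (-4.45) and Fgb was not called. Cyp2e1 made up most of the siRNA sum, with a mean log2 signal of 2.33 against -4.93 to -3.88 for Apoa1, Fgb and Hnf4a. Leukocyte markers (2 of 9 measured) summed to 5.13 to 6.20 in siRNA cells and 6.40 to 7.24 in NC cells, and fibroblast markers (6 of 9) to 311 to 328 in siRNA cells and 266 to 293 in NC cells. Of the leukocyte markers Cd68 was lower (-2.39) and Cd14 was not called. Of the fibroblast markers Col3a1 (2.66) and Col1a2 (0.61) were higher, Pdgfrb (-0.50) was lower, and Col1a1, Des and Vim were not called. Endothelial markers (5 of 6) summed to 4.32 to 5.89 in siRNA cells and 2.22 to 2.95 in NC cells, and cholangiocyte markers (3 of 5) to 4.24 to 4.85 in siRNA cells and 2.11 to 2.36 in NC cells. Kdr (1.65), Eng, Cdh5 and Krt7 (1.75) were higher, while Vwf (-4.77), Tek (-2.26), Sox9 (-1.01) and Spp1 were lower. Vwf and Tek were well above background on 0 of 4 siRNA arrays, and Sox9 and Apoa1 on 1 of 4. Cdh5 was well above background on 0 of 4 NC arrays and Hnf4a on 1 of 4. The sizes of the differences of these 6 genes are therefore uncertain. The part of these cell markers in the values below was not tested.

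Signals are given as log2 of the processed intensity relative to the array's 75th percentile, and differences as siRNA minus NC. Relative to that percentile, 5 of the 10 ER chaperone genes fell in siRNA cells, 0 rose (0 also at an unadjusted p under 0.05) and 5 did not pass the test, by limma. Over all measured genes 28.9% fell and 36.1% rose. The 5 genes were Dnajb9, Hspa5, Dnajc3, Hsp90b1 and Creld2, with differences from -0.71 to -0.18, and with scaling to spike-in controls the differences of all of these but Dnajb9 were above 0. The members' median difference was -0.15, against 0.04 over all measured genes. For 4 of the 5 genes, Creld2 being the exception, the 4 siRNA arrays all lay below the 4 NC arrays, a pattern that 27.5% of all measured genes showed, and for 0 members they all lay above, as they did for 34.8% of genes. In RNA from whole cultures, fewer cells of a type and less RNA per cell cannot be told apart.

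Hspa5 encodes BiP, the ER member of the HSP70 family and a central chaperone of the lumen. Its log2 signal was 7.79, 7.74, 7.78 and 7.71 on siRNA arrays 1 to 4, against 8.23, 8.29, 8.32 and 8.10 on NC arrays 1 to 4. All siRNA arrays lay below all NC arrays, and the siRNA values spanned a narrower range. The means were 7.75 ± 0.04 in siRNA cells and 8.24 ± 0.10 in NC cells (SD), a difference of -0.48 ± 0.06 (SE; limma adjusted p = 0.000280, n = 4 arrays per group), or 1.40-fold lower. Hsp90b1 encodes GRP94, the ER member of the HSP90 family. Its brighter probe (rn4 chr7:23334474-23334623, minus strand) read 6.08, 5.90, 6.02 and 5.94 on siRNA arrays 1 to 4, against 6.26, 6.27, 6.36 and 6.24 on NC arrays 1 to 4. The groups did not overlap, and the difference was -0.30 ± 0.06 (SE; limma adjusted p = 0.00228, n = 4 arrays per group). The other Hsp90b1 probe (rn4 chr7:23346248-23347359, minus strand) lies near the transcript's start and read 3.38, 3.16, 3.30 and 3.08 on siRNA arrays 1 to 4, against 3.64, 3.63, 3.55 and 3.47 on NC arrays 1 to 4. It gave -0.34 ± 0.08 (SE; limma adjusted p = 0.00605, n = 4 arrays per group), close to the brighter probe. Over all kept probes of the array, 31.9% were lower and 29.7% higher.

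Hyou1 encodes ORP150, a large HSP70 relative that exchanges the nucleotide of BiP. At its brighter probe the log2 signal was 5.92, 5.80, 5.89 and 5.77 on siRNA arrays 1 to 4, against 5.99, 5.92, 5.94 and 5.88 on NC arrays 1 to 4. The groups overlapped, and the difference of -0.08 ± 0.05 (SE; limma adjusted p = 0.195, n = 4 arrays per group) did not pass the test, with a 95% interval of -0.21 to 0.04. At the dimmer probe the signal was -0.87, -1.02, -0.97 and -0.93 on siRNA arrays 1 to 4, against -0.63, -0.74, -0.75 and -0.59 on NC arrays 1 to 4. There the siRNA arrays all lay below the NC arrays, and the difference was -0.27 ± 0.06 (SE; limma adjusted p = 0.00449, n = 4 arrays per group). The probes of Hyou1 thus differed in their call, and the difference between the probes was not tested. Calr encodes calreticulin, the lectin chaperone of newly made glycoproteins (rn4 chr19:24967507-24967566, plus strand). Its signal was 5.94, 5.90, 5.95 and 5.91 on siRNA arrays 1 to 4, against 6.02, 5.89, 6.11 and 6.18 on NC arrays 1 to 4. The NC arrays spread over a wider range than the siRNA arrays and enclosed all 4 siRNA values. The difference of -0.12 ± 0.07 (SE; limma adjusted p = 0.136, n = 4 arrays per group) did not pass the test, with a 95% interval of -0.28 to 0.03.

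**Figure D1:**
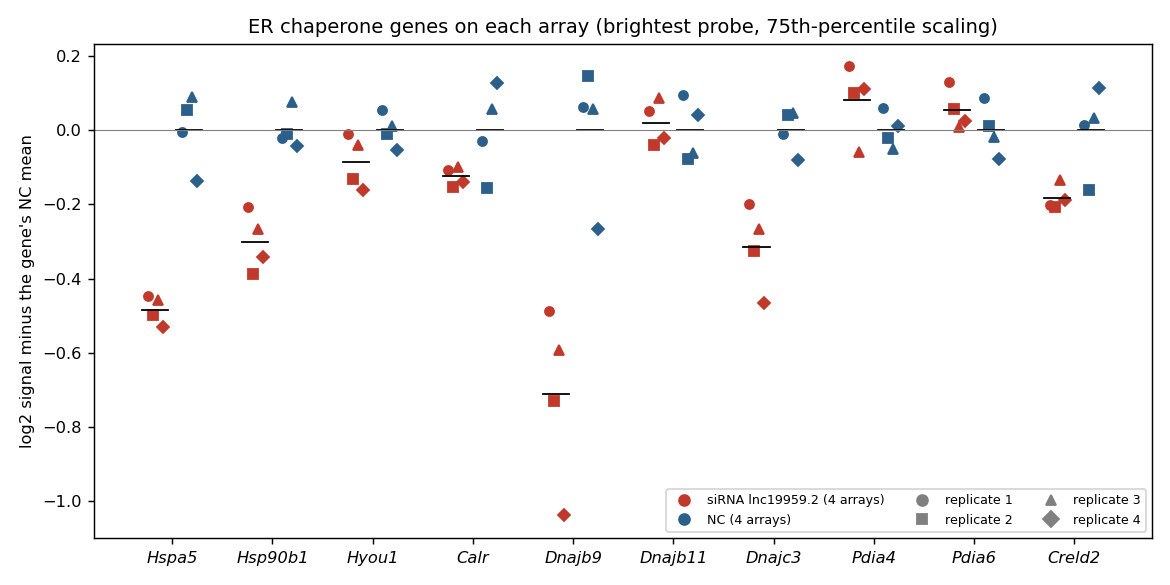
Log2 signal of each ER chaperone gene (brightest probe) on each array, minus the gene's mean over the NC arrays, with 4 siRNA arrays left of 4 NC arrays, a marker shape per replicate and a bar at each group mean. The siRNA arrays lie below all NC arrays for Hspa5, Hsp90b1, Dnajb9 and Dnajc3, and the groups overlap for the other members, all under percentile scaling (spike-in scaling raises the siRNA arrays by 0.53 relative to the NC arrays).

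Among the J-domain cochaperones, which hand substrates to BiP and stimulate its ATPase, Dnajb9 had the lowest difference of the members under percentile, median, spike-in, quantile and cyclic loess scaling. Percentile, median and spike-in scaling shift every member alike, so the order of the members is the same under them by construction. Dnajb9 (ERdj4) is a BiP cochaperone that also restrains the sensor IRE1. Its brighter probe read 2.79, 2.54, 2.68 and 2.24 on siRNA arrays 1 to 4, against 3.34, 3.42, 3.33 and 3.01 on NC arrays 1 to 4. Replicate 4 was the lowest array of each group, and the groups did not overlap. The means were 2.56 ± 0.24 in siRNA cells and 3.27 ± 0.18 in NC cells (SD), a difference of -0.71 ± 0.14 (SE; limma adjusted p = 0.00260, n = 4 arrays per group), or 1.64-fold lower. Its other probe read 2.40, 2.24, 2.36 and 1.90 on siRNA arrays 1 to 4, against 3.08, 3.17, 3.21 and 2.95 on NC arrays 1 to 4. It gave -0.88 ± 0.12 (SE; limma adjusted p = 0.000415, n = 4 arrays per group), or 1.84-fold lower. Dnajc3 encodes p58IPK, a BiP cochaperone also known as an inhibitor of PERK (rn4 chr15:103915093-103915152, plus strand). The signal of Dnajc3 was 4.69, 4.56, 4.62 and 4.42 on siRNA arrays 1 to 4, against 4.88, 4.93, 4.93 and 4.81 on NC arrays 1 to 4. The groups did not overlap, and the difference was -0.31 ± 0.07 (SE; limma adjusted p = 0.00444, n = 4 arrays per group). Dnajb11 encodes ERdj3, a BiP cochaperone that can be secreted with its substrates (rn4 chr11:80366209-80366268, minus strand). The values were 1.23, 1.13, 1.26 and 1.15 on siRNA arrays 1 to 4, against 1.27, 1.10, 1.11 and 1.22 on NC arrays 1 to 4. The groups overlapped, the difference was 0.02 ± 0.06 (SE; limma adjusted p = 0.787, n = 4 arrays per group), and its 95% interval ran from -0.12 to 0.15.

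Pdia4 and Pdia6 belong to the protein disulfide isomerases, which form and rearrange disulfide bonds. Under percentile scaling neither passed the test, whereas median and spike-in scaling called both higher. Pdia4 encodes ERp72 and its probe (rn4 chr4:75929978-75931486, minus strand) spans 1509 genomic bases. It read 2.58, 2.51, 2.35 and 2.52 on siRNA arrays 1 to 4, against 2.47, 2.38, 2.36 and 2.42 on NC arrays 1 to 4. The replicate 3 siRNA array lay below every NC array and the other siRNA arrays lay above all of them. The difference was 0.08 ± 0.06 (SE; limma adjusted p = 0.275, n = 4 arrays per group), with a 95% interval of -0.06 to 0.22. Pdia6 encodes the isomerase P5, and its probe lies on a part of chromosome 6 that rn4 leaves unplaced. The signal was 7.09, 7.02, 6.97 and 6.99 on siRNA arrays 1 to 4, against 7.05, 6.97, 6.94 and 6.88 on NC arrays 1 to 4. The groups overlapped, and the difference was 0.06 ± 0.05 (SE; limma adjusted p = 0.395, n = 4 arrays per group), with a 95% interval of -0.07 to 0.18. Creld2 encodes a small ER protein with disulfide isomerase activity that is known as an ER stress target (rn4 chr7:127125310-127125369, plus strand). Its values were 4.38, 4.38, 4.45 and 4.40 on siRNA arrays 1 to 4, against 4.60, 4.43, 4.62 and 4.70 on NC arrays 1 to 4. The lowest NC array lay within the siRNA range, and the difference of -0.18 ± 0.06 (SE; limma adjusted p = 0.0398, n = 4 arrays per group) passed the test. Creld2 lost the call when any of 7 arrays was left out (adjusted p = 0.0533 to 0.0877), NC replicate 2 being the exception (adjusted p = 0.00844), and in the fit with the replicate number as a block (adjusted p = 0.0525). Calr, in turn, was called lower without NC replicate 2 (-0.18, adjusted p = 0.0357).

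**Figure D2:**
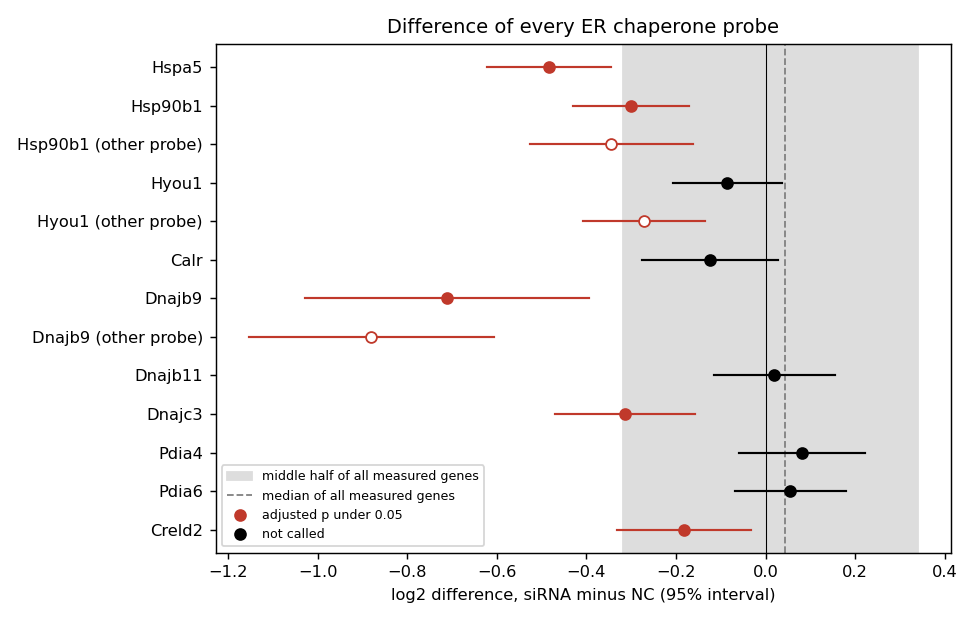
Log2 difference, siRNA minus NC, of all 13 probes with 95% intervals from limma (n = 4 arrays per group), filled for the brightest probe of a gene and open for the other. The grey band spans the quartiles of all measured genes, -0.32 to 0.34, and the dashed line their median of 0.04, and both Dnajb9 probes, the Hspa5 probe and the other Hsp90b1 probe lie left of the band. With spike-in scaling every point, the band and the dashed line would all move to the right by 0.53.

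The sign of these differences rested on how the arrays were scaled. Scaling to the array median raised every difference by 0.30 on the log2 scale, and scaling to the spike-in controls by 0.53. With median scaling 4 members were higher (Hyou1, Dnajb11, Pdia4 and Pdia6) and 2 lower (Dnajb9 at -0.41 and Hspa5 at -0.18), against 59.9% of all measured genes higher and 15.4% lower. With spike-in scaling 8 were higher and 0 lower by limma, against 72.4% higher and 10.1% lower, and the exceptions were Hspa5 (0.05, adjusted p = 0.581) and Dnajb9 (-0.18, adjusted p = 0.265). Quantile normalization called 7 lower and 0 higher by limma, against 28.3% lower and 36% higher of all genes. Cyclic loess also called 7 lower and 0 higher, against 30.6% lower and 33.8% higher, and both added Calr and Hyou1 to the 5 genes. Normexp background correction of the mean intensities called 0 members in either direction by limma, also 0 at an unadjusted p under 0.05, against 7.03% of genes lower and 11.1% higher. The members' median minus the median of all genes cannot differ among the percentile, median and spike-in scalings, and was -0.20 under them. It was -0.31 after quantile normalization and -0.29 after cyclic loess, whereas after normexp background correction it was 0.12. With normexp only on spots no dimmer than their local background, a setting added after the data were seen, that value was -0.17. Of the members, 5 were then lower and 0 higher by limma (0 also at an unadjusted p under 0.05), against 30% of genes lower and 35.1% higher. The difference of Dnajb9 was negative under all 5 scalings, and it was not called with the spike-in controls.

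**Figure D3:**
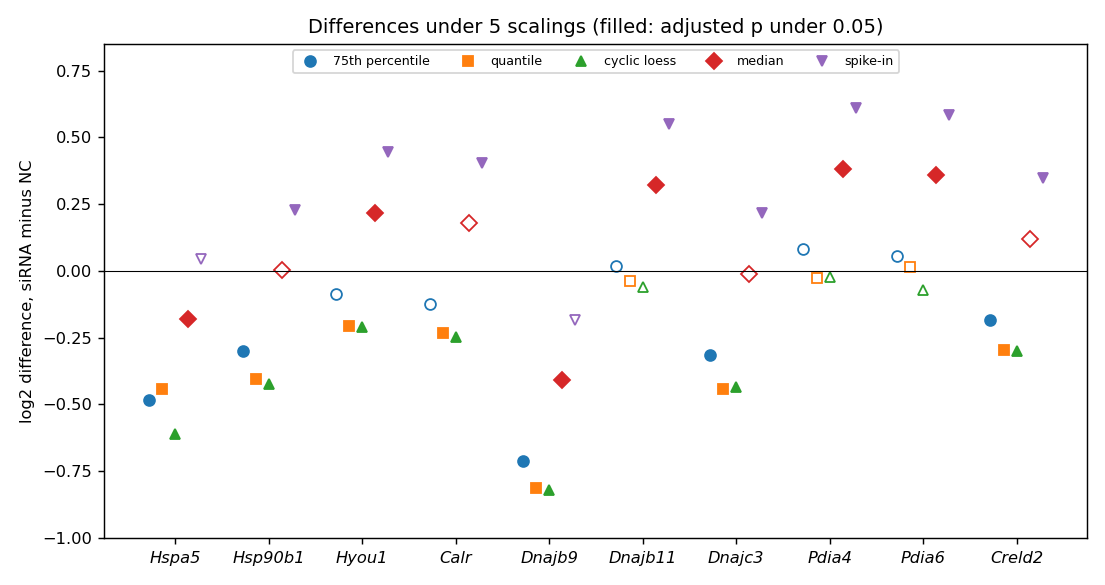
Log2 difference of each member's brightest probe, siRNA minus NC, under 5 scalings, filled where the limma adjusted p is under 0.05. For every member median and spike-in scaling lie above the percentile scaling, and Dnajb9 is the lowest member under each scaling. The order of the members is the same by construction under percentile, median and spike-in scaling.

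A ratio within an array does not depend on a scaling by 1 number, so each member was set against the mean log2 signal of the other 9 on the same array. These ratios are descriptions of unequal change and have no test. The ratio was lower in siRNA cells, with no overlap of the groups, for Dnajb9, Hspa5, Dnajc3 and Hsp90b1. It was higher with no overlap for Pdia4, Pdia6, Dnajb11 and Hyou1, and overlapped for Calr and Creld2. Added over the members, these ratios cancel on each array, so a lower ratio of some members forces a higher ratio of others. Of 10842 other measured genes set against the mean of all members on the same array, 17.2% lay below and 51.4% above without overlap. The ratios of these genes need not cancel, so their shares are not a like background for the members. The log2 ratio of Dnajb9 was -2.46 ± 0.20 in siRNA cells and -1.90 ± 0.18 in NC cells (SD), and that of Hspa5 was 3.31 ± 0.03 in siRNA cells and 3.62 ± 0.09 in NC cells (SD). The groups of Hspa5 overlapped after quantile normalization, those of Hsp90b1 after cyclic loess, and those of Dnajc3 and Hyou1 with the mean of a gene's probes. With normexp background correction Dnajb9 and Hspa5 stayed below and Hyou1 and Pdia6 above, and with normexp on spots no dimmer than their background Dnajc3 overlapped. The log2 ratio of Pdia4 was -2.54 ± 0.13 in siRNA cells and -2.86 ± 0.06 in NC cells (SD), that of Pdia6 2.49 ± 0.05 in siRNA cells and 2.20 ± 0.06 in NC cells (SD), and that of Dnajb11 -3.98 ± 0.05 in siRNA cells and -4.23 ± 0.09 in NC cells (SD). Hyou1 had the tightest ratios, 1.19 ± 0.02 in siRNA cells and 1.06 ± 0.02 in NC cells (SD).

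**Figure D4:**
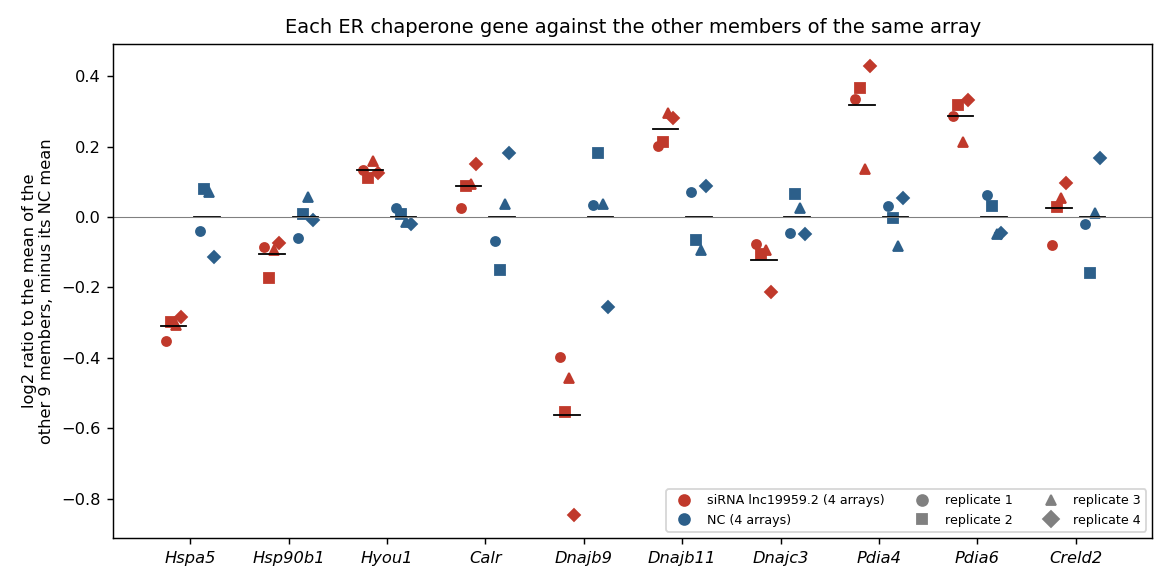
Log2 ratio of each member to the mean of the other 9 members on the same array, minus its mean over the NC arrays, for 4 siRNA and 4 NC arrays. The siRNA points of Dnajb9, Hspa5, Dnajc3 and Hsp90b1 lie below the NC points, and those of Pdia4, Pdia6, Dnajb11 and Hyou1 lie above them.

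Set beside the promoters shown above, 4 of the 5 members with an exact ERSE were called lower under percentile scaling, where 28.9% of all measured genes were lower, Calr being the other one. Of these 4, Creld2 lost its call when any of 7 arrays was left out. With spike-in scaling none of the 5 was called lower, and all but Hspa5 were called higher, as were 72.4% of all genes. Both members with ERSE-II, Dnajb11 and Hyou1, were not called at their brightest probes under percentile scaling, and Dnajb9 had no match to the 3 motifs in its window. The other Hyou1 probe was lower (-0.27, limma adjusted p = 0.00449). Quantile normalization and cyclic loess called Hyou1 and Calr lower, while median and spike-in scaling called Hyou1 and Dnajb11 higher. Of 11 other measured genes with an exact ERSE, 2 were higher, 5 lower and 4 not called, with a median difference of 0.03, under percentile scaling (28.9% of all genes lower and 36.1% higher). Among those 5 lower genes were Derl3, a channel component of ER-associated degradation, at -0.57 ± 0.05 (SE; adjusted p = 6.82e-05), and Ero1b, an oxidase that recharges the isomerases, at -0.45 ± 0.16 (SE; adjusted p = 0.0382). The rest of the lower genes were Pan2 (-0.87), Zfand2a (-0.82) and Zfp57 (-0.34), and the higher genes were Birc5 (1.77) and Hnrnpa3 (0.21). Canx, the membrane-bound partner of calreticulin, also has an exact ERSE, and its difference was 0.03 ± 0.08 (SE; adjusted p = 0.775). Of 7 other measured genes with ERSE-II, 1 was higher (Cdc45, 0.78) and 5 lower, with a median of -0.40. The lower genes were Rnf151 (-1.52), Herpud1 (-0.59), Ggct (-0.41), Nucb1 (-0.40) and Cdc27 (-0.17). Both sets of other genes were taken by their promoter letters after the members' values had been seen. Within them Derl3, Ero1b and Canx, all genes of the ER, were picked for fuller description after their values were seen.

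Under percentile scaling the other genes of the ER pathway, in the lists below, were called in both directions, translocation genes only higher. With spike-in scaling all calls in these lists were higher except 1, in ER-associated degradation. Of 16 genes on the array for sensors of the response, its transcription factors and the enzymes that process them, 15 were measured, of which 5 were higher, 4 lower and 6 not called, where 36.1% of all measured genes were higher and 28.9% lower, against 11 higher and 0 lower with spike-in scaling (0 also at an unadjusted p under 0.05, limma). Atf4, the transcription factor downstream of PERK, was -0.56 ± 0.09 (SE; adjusted p = 0.00116), and Creb3, an ER-anchored factor, -0.29 ± 0.06 (SE; adjusted p = 0.00335). Mbtps2, a protease that releases ATF6 from its membrane, was -0.71 ± 0.11 (SE; adjusted p = 0.00102) and well above background on 2 of 4 siRNA arrays. Creb3l1, another membrane-anchored factor, was 0.65 ± 0.07 (SE; adjusted p = 0.000139). Nfyb, a subunit of the factor that binds CCAAT boxes, was 0.60 ± 0.06 (SE; adjusted p = 0.000101), and Atf6b, a relative of ATF6, 0.41 ± 0.07 (SE; adjusted p = 0.00203). Atf6 itself was -0.35 ± 0.14 (SE; adjusted p = 0.0569) and Eif2ak3, which encodes PERK, -0.19 ± 0.11 (SE; adjusted p = 0.145), neither of which passed the test. Atf6 and Eif2ak3 were chosen after their values were seen. Xbp1 and Ern1, which encodes IRE1, had no named probe in the files.

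Genes of ER-associated degradation, which returns misfolded proteins to the cytosol, had 10 of 23 genes lower, 2 higher and 11 not called, with a median of -0.07. Under the same percentile scaling 28.9% of all measured genes were lower and 36.1% higher. With spike-in scaling 1 was lower and 17 higher, where 10.1% of all genes were lower and 72.4% higher. Edem3, which trims mannose from misfolded glycoproteins, was -0.79 ± 0.09 (SE; adjusted p = 0.000179). Herpud1, a scaffold of the degradation complex, was -0.59 ± 0.07 (SE; adjusted p = 0.000189). Ngly1, which strips glycans in the cytosol, was 0.36 ± 0.07 (SE; adjusted p = 0.00217), and Edem2, a relative of Edem3, 0.16 ± 0.05 (SE; adjusted p = 0.0314). Sel1l, the adaptor of the ubiquitin ligase Syvn1, was -0.49 ± 0.06 (SE; adjusted p = 0.000195). Of these, Sel1l was chosen after its value was seen.

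Of 44 measured genes of other ER folding enzymes, lectins and cochaperones, 18 were higher, 8 lower and 18 not called, with a median of 0.08. Over all measured genes higher calls also outnumbered lower ones, at 36.1% and 28.9%. With spike-in scaling 39 of the 44 were higher and 0 lower (0 also at an unadjusted p under 0.05, limma), and with the percentile of probes bright on all arrays 13 were higher and 12 lower. The prolyl isomerase genes Fkbp2 and Fkbp7 were 0.80 ± 0.07 (SE; adjusted p = 4.99e-05) and 0.71 ± 0.06 (SE; adjusted p = 4.17e-05). Mogs, the glucosidase that starts glycan trimming, was 0.69 ± 0.07 (SE; adjusted p = 8.27e-05). Lower genes were Fkbp11 at -0.36 ± 0.05 (SE; adjusted p = 0.000428), Fkbp14 at -0.40 ± 0.07 (SE; adjusted p = 0.00130) and the calcium-binding gene Nucb1 at -0.40 ± 0.06 (SE; adjusted p = 0.00106). Pdia3 and P4hb, further disulfide isomerase genes chosen after their values were seen, were 0.00 ± 0.06 (SE; adjusted p = 0.998) and 0.18 ± 0.07 (SE; adjusted p = 0.0535) and were not called. Genes of translocation into the ER and of signal peptide removal had 12 of 30 higher, 0 lower (1 at an unadjusted p under 0.05) and 18 not called by limma, with a median of 0.09, beside the same 36.1% and 28.9% of all genes. Krtcap2, a subunit of the glycan transferase, was 0.48 ± 0.05 (SE; adjusted p = 0.000110). Spcs1 of the signal peptidase was 0.30 ± 0.05 (SE; adjusted p = 0.00100), and Ssr2 of the translocon-associated complex 0.33 ± 0.05 (SE; adjusted p = 0.00102). With spike-in scaling all 30 translocation genes were higher, as were 72.4% of all genes, and with cyclic loess 4 were higher and 6 lower.

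**Figure D5:**
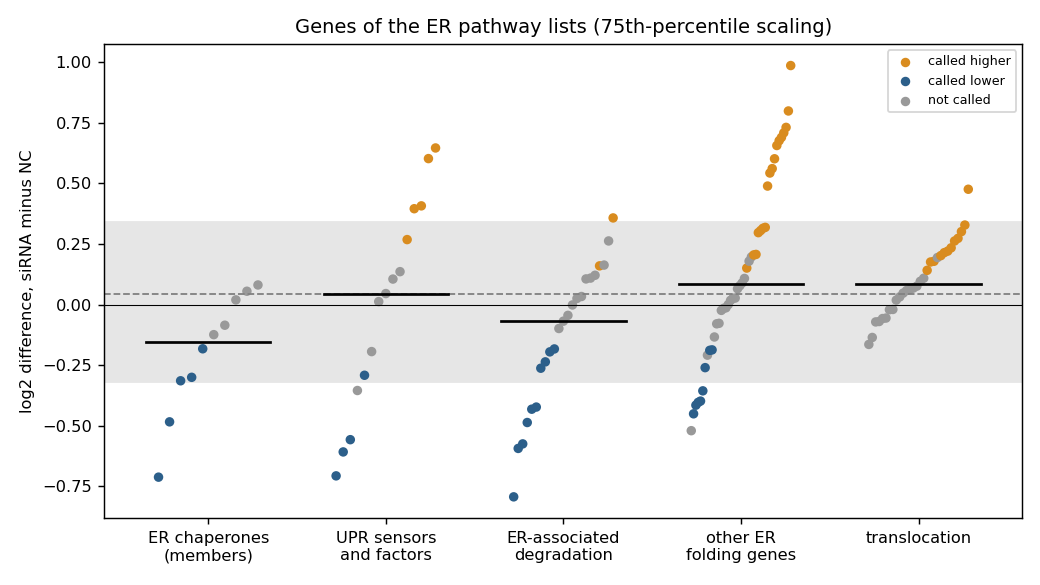
Log2 difference, siRNA minus NC, of each measured gene of the ER chaperones and of 4 other ER lists under percentile scaling, coloured by its limma call, with a bar at each median. The medians are -0.15 for the ER chaperones, 0.05 for sensors and factors, -0.07 for degradation, 0.08 for other folding genes and 0.09 for translocation. Spike-in scaling adds 0.53 to each, as to every measured gene.

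Between arrays of the same group the members varied together only in part. After each gene's group mean was taken off, the correlation of a member with the mean of the other members over the 8 arrays, which share each array's scaling, ran from -0.14 for Creld2 to 0.95 for Hyou1. Dnajc3 stood at 0.82 and Hsp90b1 at 0.73, while Calr and Pdia4 were at -0.09 and -0.08. The 5 other genes whose deviations were most like the mean of the members were Slc66a2, Papolg, Kif3c, Smyd3 and Ctsd, with r from 0.976 to 0.980 over 8 arrays, where the median r of 10851 genes was 0.146. They were picked for the highest r, and 1.17% of the 10851 genes had r over 0.9. For the same 5 genes r ran from 0.916 to 0.994 with median scaling, 0.860 to 0.986 with spike-in scaling, 0.484 to 0.588 with quantile normalization and 0.437 to 0.911 with cyclic loess.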

How the data were processed

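Total RNA of 8 BRL-3A samples, 4 per group, was hybridised to 1-colour arrays. The deposited scanner files hold spot intensity, background-subtracted and detrended within the array by Agilent Feature Extraction 12.0.3.1, per the file headers. The authors' deposited table of log2 values covered 86 probes, none of a member, and gave no value here.

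Control spots and 129 to 174 outlier spots per array were dropped. From log2 intensity the array's 75th percentile was taken off, and spots of a probe were averaged. The 24853 probes well above background on at least 3 of 4 arrays of a group were kept. Probes were named by accession through RefSeq's GRCr8 table (18028), a current (3168) or older (400) symbol or the file (124), and 19292 stayed unnamed. A gene was its brightest kept probe. The test was limma 3.58.1 (R 4.3.3; lmFit, eBayes, two-sided), Benjamini-Hochberg adjusted over kept probes, with calls at an adjusted p under 0.05. The fit was tested on simulated data. Members and gene lists were chosen with earlier results of these data known. All members are named, and in each ER list the called genes with the 3 smallest adjusted p in each direction. Motifs were searched after the members' values were known. Alternatives were other scalings, normexp background correction, other filters, an intensity trend, the mean of probes, the replicate block and each array left out. The number of arrays limits the precision.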

Additional observations from a re-analysis of the deposited data

How the results depend on the processing

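Of 200 alternative fits of the members' differences, 147 kept direction and side of the threshold and 25 changed sign. With the sign kept, 14 lost a call and 14 gained one. Some sign changes also lost a call, as Hspa5 did with spike-in scaling (adjusted p = 0.581 by limma). Others gained one, as Hyou1 did with median scaling (adjusted p = 0.016 by limma). For the named genes of the ER lists 365 of 399 kept direction and side of the threshold, 28 lost a call with the sign kept and 6 changed sign. The sign changes under median and spike-in scaling follow from the shift of 0.30 and 0.53 that these add to every difference; the cause of the others was not tested. Median scaling gave a members' median of 0.1495, with 4 members higher and 2 lower, and turned Calr (0.1786), Creld2 (0.1204), Hsp90b1 (0.002608), Hyou1 (0.2176) and Creb3 (0.0111). It called 12949 probes higher and 4249 lower. The higher and lower counts were 9 and 2 for sensors and factors, 13 and 4 for degradation, 34 and 0 for other folding genes, and 28 higher for translocation. Spike-in scaling gave a median of 0.3768, with 8 members higher and 0 lower, and turned Calr (0.4059), Creld2 (0.3476), Dnajc3 (0.2156), Hsp90b1 (0.2299), Hspa5 (0.04617), Hyou1 (0.4449), Creb3 (0.2384), Fkbp11 (0.1741), Nucb1 (0.1319) and Fkbp14 (0.1266). It called 16249 probes higher and 2729 lower. The counts were 11 and 0 for sensors and factors, 17 and 1 for degradation, 39 and 0 for other folding genes, and 30 higher for translocation. The counts of 0 lower under these scalings were also 0 at an unadjusted p under 0.05 by limma.

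Normexp background correction gave a members' median of 0.1151, called 0 members lower, and turned Calr (0.1381), Hyou1 (0.2226), Creld2 (0.09218), Dnajc3 (0.02709) and Creb3 (0.007692). It called 1972 probes higher and 1677 lower. The higher and lower counts were 2 and 0 for sensors and factors, 0 and 1 for degradation, and 8 and 0 for other folding genes, with 0 higher for translocation. At an unadjusted p under 0.05 by limma these counts of 0 were 0 for sensors and factors, 2 for degradation, 1 for other folding genes and 10 for translocation. Within arrays it left 2 members above (Hyou1 and Pdia6) and 2 below (Dnajb9 and Hspa5) the other members. With normexp on spots no dimmer than their background, added after the data were seen, 1 translocation gene was lower. The members' median was then -0.151, with 5 members lower and 0 higher by limma (0 also at an unadjusted p under 0.05). The members' median was -0.2645 with quantile normalization, -0.2742 with cyclic loess and -0.2376 with the percentile of probes bright on all arrays. These turned the uncalled members Dnajb11 (-0.03601, -0.06166 and -0.06492 in that order) and Pdia4 (-0.02468, -0.02423 and -0.003436), and the last 2 turned Pdia6 (-0.07162 and -0.02932). Translocation genes then numbered 6 higher and 4 lower, 4 higher and 6 lower, and 5 higher and 5 lower in that order. Degradation had 1 gene higher with cyclic loess, with the bright-probe percentile and without the filter on dim probes, and 4 with the mean of probes. Sensors and factors had 3 higher with the bright-probe percentile and without the filter, which also left 5 other folding genes lower. Translocation had 1 gene lower with the intensity trend and 2 with the mean of probes.

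With 1 array left out, 4 to 6 members were lower and 0 higher by limma (1 higher at an unadjusted p under 0.05 without siRNA replicate 3, 0 otherwise), with a median of -0.2058 to -0.1235, the lowest being without NC replicate 2. The uncalled difference of Dnajb11 ran from -0.006363 to 0.05148 and was below 0 without siRNA replicate 3 (-0.002436), NC replicate 2 or NC replicate 3 (-0.0004645). The ranges were 6621 to 7351 probes higher and 6412 to 7722 lower, 3 to 5 sensors and factors higher and 4 to 5 lower, 1 to 5 degradation genes higher and 8 to 10 lower, 15 to 17 other folding genes higher and 5 to 9 lower, and 8 to 12 translocation genes higher and 0 to 1 lower. Degradation had 5 higher without siRNA replicate 4 and 1 without siRNA replicate 2 or 3 or NC replicate 4, and sensors and factors had 3 higher without siRNA replicate 2, 3 or 4 or NC replicate 1, 2 or 3. Other folding genes had 5 lower without siRNA replicate 4 or NC replicate 2, and translocation had 1 lower without siRNA replicate 2. Over all kept probes the deviations of same-numbered arrays correlated at r = 0.0134, 0.0299, -0.0320 and 0.209 for numbers 1 to 4, and since 3 of these were under 0.1 the numbers were not taken to pair the samples. The members' mean deviated with the same sign in both groups for all 4 numbers. The replicate block gave 0 members higher (0 at an unadjusted p under 0.05 by limma) and 4 lower, the difference of Creld2 then having an adjusted p of 0.0525 by limma, and 7166 probes higher and 7819 lower. The authors' table gave no value for any member. Signal over background did not limit the members, all of whose probes were well above background on all 8 arrays.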
